A study of Mus musculus with 8 samples.

Results

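Extracellular signal-regulated kinase (ERK), the last kinase of the RAS-RAF-MEK-ERK cascade, switches on genes whose products switch the cascade off again. Dual-specificity phosphatases (DUSPs) remove the activating phosphates from ERK, some in the nucleus and others in the cytoplasm, while Sprouty and Spred proteins act further upstream, between growth factor receptors and RAF. In keratinocytes the cascade is driven largely by EGF and FGF receptors and takes part in proliferation and wound repair. The genes described here are 10 such feedback regulators, chosen by symbol: Dusp1, Dusp4, Dusp5, Dusp6, Dusp7, Spry1, Spry2, Spry4, Spred1 and Spred2. Each of the 10 had a row among the 15540 genes of the authors' deposited table.

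The RNA came from tissue described as tongue epithelium, of C57BL/6 mice that carry K14-rtTA and TRE-FLBmi-1, together named KrTB. A doxycycline-dependent transactivator is made under the keratin 14 promoter, in basal keratinocytes, and acts on a Bmi-1 construct. Mice of the KrTB group drank water (4 libraries), and those of KrTB+DOX drank water with doxycycline at 2 mg/mL (4 libraries). All 8 libraries came from mice with both transgenes, so doxycycline itself and the Bmi-1 construct cannot be told apart. The sources used here do not give age, duration of dosing or any pooling of mice. Values per library were not analysed here, depth is therefore unknown, and each result below is a fold change of the authors' deposited limma comparison of the groups. A positive log2 fold change was read as higher in KrTB+DOX, because Bmi1 stands at 5.42 (SE 0.10) in the authors' deposited table. The standard error (SE) and the 95% interval were computed from the deposited fold change and t.

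Bulk tissue was measured, and fewer cells of a type cannot be told apart from less RNA per cell. Of 12 keratinocyte markers 3 were higher and 0 lower in the authors' deposited table, with a median log2 fold change of 0.09 that covers opposite directions. Of the markers of the basal layer, Trp63 (log2 fold change 0.78, adjusted p = 0.0202 by limma) and Krt15 (0.54, adjusted p = 0.0452) rose, and Krt14 (0.80, adjusted p = 0.11) and Krt5 (0.40, adjusted p = 0.181) lay above 0 without a call, as the authors' deposited table gives them. Itga6 (-0.03, adjusted p = 0.842 by limma) and Itgb4 (0.15, adjusted p = 0.298), also of the basal layer, were not called, so its markers did not rise as a whole. Krt13 (-0.29, adjusted p = 0.228) and Krt4 (-0.25, adjusted p = 0.328), keratins of the layers above, lay below 0 without a call by limma, and Epcam (0.75, adjusted p = 0.0402) was the remaining marker that rose. All 12 skeletal muscle markers lay below 0, with 0 called by limma, 4 of them at an unadjusted p under 0.05 and a median of -0.28, in the authors' deposited table. Their summed level, estimated by setting the fold change evenly on either side of the mean, was 40612 CPM (read counts scaled to library size) in KrTB and 34226 CPM in KrTB+DOX. The keratinocyte markers summed to 42005 and 38343 CPM, so muscle transcripts were nearly as abundant by these markers. Levels given below are therefore of mixed tissue, not of keratinocytes alone. Krt13 and Krt4 (means of 14.0 and 13.9 log2 CPM) weigh most in the keratinocyte sum, whereas 8 of its 12 markers lay above 0. Of 8 fibroblast markers 4 were lower and 0 higher (summed estimates 2979 and 1493 CPM), where 8.13% of all genes were called. The 4 were Col3a1 (log2 fold change -2.05), Col1a2 (-1.31), Col1a1 (-1.25) and Lum (-0.83). Dpt (-0.61), Pdgfra (-0.44), Dcn (-0.15), the highest in mean expression, and Fbln1 (0.04) were not called by limma. Of 7 endothelial markers 1 was lower (522 and 509 CPM) and of 8 immune markers 1 was lower (217 and 223 CPM) in the authors' deposited table. The part of these shifts in the results below was not tested.

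Among the 10 feedback genes, Dusp5, Spry4, Dusp7 and Dusp1 rose in KrTB+DOX, by 1.33-fold to 1.67-fold, and 0 fell, by limma with an adjusted p under 0.05 in the authors' deposited table. The same 4 genes were those with an unadjusted p under 0.05, which 25.2% of all genes had. The other 6 genes had log2 fold changes from -0.16 to 0.09 in the authors' deposited table, and the smallest of their p-values was 0.128. The share of genes called over the whole authors' deposited table was 8.13% in either direction, of which 3.82% were higher and 4.31% lower. Between the lowest and the highest mean expression of the feedback genes it was 8.71%. The difference between 4 of 10 and these shares was not tested, because the genes were chosen with results of these data known. The median log2 fold change was 0.07 over the 10 genes and -0.01 over all genes. Each phosphatase group held a called gene beside an uncalled one, as did the Sprouty genes. The calls rest on narrow margins. None of the 4 genes was called when tested against a 1.2-fold change, where the smallest adjusted p was 0.251 (Dusp5) and the largest 0.847 (Dusp1).

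**Figure D1:**
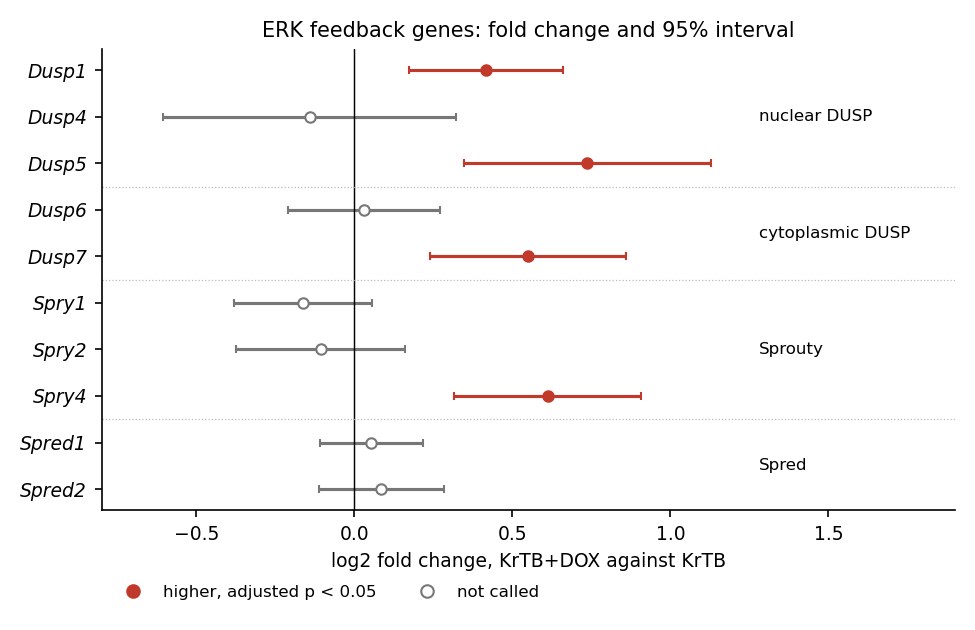
Log2 fold change (x axis, KrTB+DOX against KrTB) of the 10 feedback genes (y axis, grouped by role), with points for the deposited value and bars for the 95% interval. Filled points are the 4 called genes, at 0.42 to 0.74, and open points the 6 uncalled genes, at -0.16 to 0.09.

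The nuclear phosphatases are encoded by Dusp1, Dusp4 and Dusp5, which are immediate or early response genes in many cell types. Dusp5, whose product is selective for ERK and holds it in the nucleus, had the largest fold change of the 10. It was 1.67-fold higher (0.74 on the log2 scale, SE 0.17, 95% interval 0.35 to 1.13, adjusted p = 0.033 by limma) in the authors' deposited table. This corresponds to an estimated level of 16.8 CPM in KrTB and 28.0 CPM in KrTB+DOX, and 97.4% of all genes had a lower log2 fold change. Dusp1, whose product also acts on the stress kinases JNK and p38, was 1.33-fold higher (0.42 on the log2 scale, SE 0.11, 95% interval 0.17 to 0.66, adjusted p = 0.0465 by limma) in the authors' deposited table. Its estimated level was 81.0 CPM in KrTB and 108 CPM in KrTB+DOX. Dusp4, a nuclear phosphatase of ERK and JNK, stood on the log2 scale at -0.14 (SE 0.21, 95% interval -0.61 to 0.32, adjusted p = 0.712 by limma) in the authors' deposited table. Its mean expression, 1.74 log2 CPM, was the lowest of the 10, and at its SE only a change of at least 0.78 on the log2 scale would have been called. The log2 fold change of Dusp5 exceeded that of Dusp4 by 0.88 (SE 0.27 if the errors are independent) and that of Dusp1 by 0.32 (SE 0.21), differences given without a test.

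The cytoplasmic phosphatases of ERK are encoded by Dusp6 and Dusp7. Dusp7 was 1.46-fold higher (0.55 on the log2 scale, SE 0.14, 95% interval 0.24 to 0.86, adjusted p = 0.0403 by limma) in the authors' deposited table, which corresponds to an estimated 56.2 CPM in KrTB and 82.2 CPM in KrTB+DOX. Dusp6, often used as a readout of ERK output downstream of FGF receptors, stood on the log2 scale at 0.03 (SE 0.11, adjusted p = 0.894 by limma) in the authors' deposited table. Its 95% interval ran from -0.21 to 0.27, and the estimated levels were 29.8 CPM in KrTB and 30.4 CPM in KrTB+DOX. A change of 0.40 on the log2 scale would have been called at the SE of Dusp6, so a rise of the size of Dusp7 was within reach of the test. The difference of Dusp7 minus Dusp6 was 0.52 (SE 0.18 if the errors are independent), and their intervals overlapped between 0.24 and 0.27.

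Promoter sequences are shown for both nuclear phosphatase genes that rose and for the cytoplasmic pair, of which Dusp7 rose and Dusp6 was not called. They are taken from RefSeq on GRCm38.p6 and run 5′ to 3′ on the strand of the gene, from position -250 to position -51 of the annotated start. They lie at chr17:26508523-26508722 on the minus strand (Dusp1), chr19:53528895-53529094 on the plus strand (Dusp5), chr9:106368382-106368581 on the plus strand (Dusp7) and chr10:99262981-99263180 on the plus strand (Dusp6). Capitals mark matches to the TGACG core of the cAMP response element or to the CArG box, the site of serum response factor.
Dusp1: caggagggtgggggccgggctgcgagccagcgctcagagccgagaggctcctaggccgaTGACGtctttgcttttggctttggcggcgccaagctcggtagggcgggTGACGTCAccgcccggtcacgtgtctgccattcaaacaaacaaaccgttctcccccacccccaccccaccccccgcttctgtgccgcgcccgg
Dusp5: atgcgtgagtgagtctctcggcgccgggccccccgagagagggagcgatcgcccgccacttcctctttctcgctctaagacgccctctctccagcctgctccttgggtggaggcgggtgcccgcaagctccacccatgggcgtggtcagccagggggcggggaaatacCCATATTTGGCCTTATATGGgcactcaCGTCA
Dusp7: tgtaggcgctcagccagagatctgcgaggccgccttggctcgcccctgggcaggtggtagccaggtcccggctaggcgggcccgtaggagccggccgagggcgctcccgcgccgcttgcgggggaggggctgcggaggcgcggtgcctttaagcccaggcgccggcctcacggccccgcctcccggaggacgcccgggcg
Dusp6: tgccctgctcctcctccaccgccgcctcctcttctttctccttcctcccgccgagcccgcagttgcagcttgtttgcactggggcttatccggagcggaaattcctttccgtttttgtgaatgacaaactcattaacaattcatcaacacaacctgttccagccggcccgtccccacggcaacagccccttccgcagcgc

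RefSeq promoter windows of 300 bases, ending 50 bases after the start, were matched for 8 of the 10 genes, without Dusp4 and Spry4. They were searched on both strands for 4 motifs: TGACG, the AP-1 site TGANTCA, the ETS site CCGGAA and the CArG box. TGACG was found in 3 of the 8 windows, those of Dusp1, Dusp5 and Spred2, and in 28.9% of 14347 windows of tested genes. In Dusp1 it occurred 3 times, with matches on opposite strands overlapping each other from position -143 to position -136, counted from 0 at the first transcribed base. A CArG box was found in the Dusp5 window, as a pair of adjoining matches from position -82 to position -63, and in 1.35% of windows of tested genes. ETS matches were found in Spry2 alone, at position 33, against 24.4% of windows. AP-1 matches were found in 0 of the 8 windows, against 5.66% of windows. The windows of Dusp7, Dusp6, Spry1 and Spred1 held 0 matches to the 4 motifs, so genes that rose and genes that were not called occurred with and without a match. The ratio of observed to expected CpG had a median of 0.91 over the 8 windows (0.70 to 1.03) and of 0.72 over windows of tested genes.

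**Figure D2:**
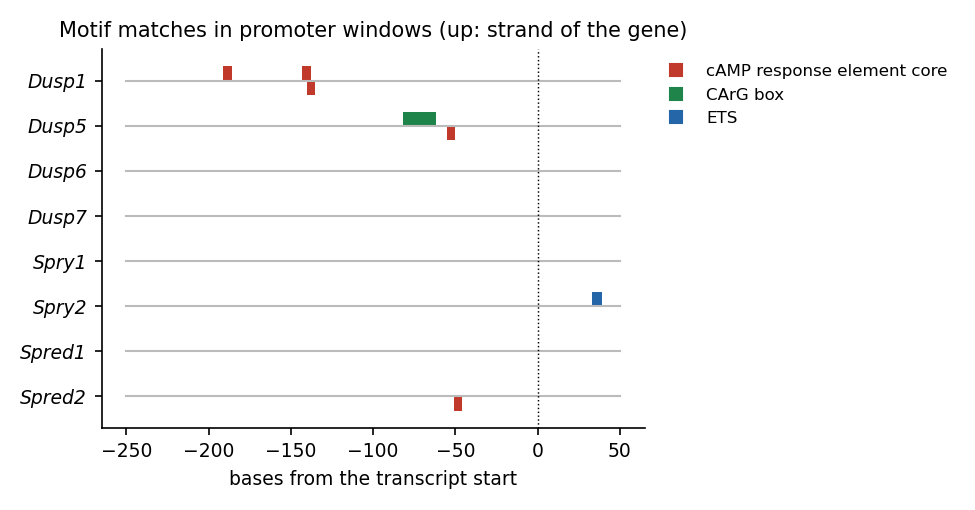
Motif matches (boxes; above the line on the strand of the gene, below it on the other strand) by distance from the transcript start in bases (x axis) for the 8 feedback genes with a RefSeq promoter window (y axis). Dusp1 holds 3 matches to the cAMP response element core, and the adjoining CArG boxes of Dusp5 span positions -82 to -63.

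Sprouty proteins block signalling from receptor tyrosine kinases to ERK. Spry4 was 1.53-fold higher (0.61 on the log2 scale, SE 0.13, 95% interval 0.32 to 0.91, adjusted p = 0.0247 by limma) in the authors' deposited table. It had the smallest p of the 10 genes and stood at rank 632 of 15540 by p. Its estimated level was 6.98 CPM in KrTB and 10.7 CPM in KrTB+DOX, which makes it a gene of low abundance in this tissue. Spry1 stood on the log2 scale at -0.16 (SE 0.10, 95% interval -0.38 to 0.06, adjusted p = 0.33 by limma) in the authors' deposited table, at an estimated 43.0 CPM in KrTB and 38.4 CPM in KrTB+DOX. Spry2 stood on the log2 scale at -0.11 (SE 0.12, 95% interval -0.37 to 0.16, adjusted p = 0.62 by limma) in the authors' deposited table, at an estimated 16.3 CPM in KrTB and 15.1 CPM in KrTB+DOX. Neither of the more abundant Sprouty genes was called, and the interval of Spry4 lay wholly above those of Spry1 and Spry2. The log2 fold change of Spry4 exceeded that of Spry1 by 0.77 (SE 0.16 if the errors are independent) and that of Spry2 by 0.72 (SE 0.18), given without a test because the pairs were seen first. Between Spry2 and Spry1 the difference was 0.06 (SE 0.15).

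Spred proteins bind neurofibromin, the RAS GTPase-activating protein encoded by Nf1, and bring it to the membrane. Spred1 stood on the log2 scale at 0.05 (SE 0.07, 95% interval -0.11 to 0.22, adjusted p = 0.692 by limma) and an estimated level of 45.8 CPM in KrTB and 47.5 CPM in KrTB+DOX, from the authors' deposited table. Spred2 stood on the log2 scale at 0.09 (SE 0.09, 95% interval -0.11 to 0.28, adjusted p = 0.584 by limma) and an estimated 35.1 CPM in KrTB and 37.2 CPM in KrTB+DOX, from the authors' deposited table. The Spred genes had the smallest SEs of the 10, so changes as small as 0.27 (Spred1) and 0.33 (Spred2) on the log2 scale would have been called. Their difference was 0.03 (SE 0.11 if the errors are independent).

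**Figure D3:**
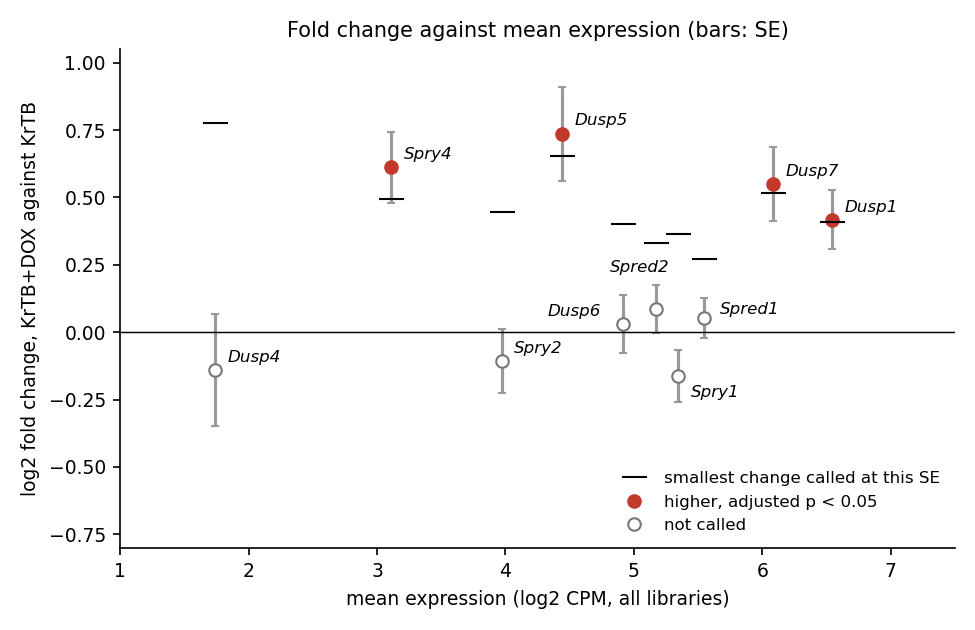
Log2 fold change (y axis) of the 10 feedback genes against their mean expression in log2 CPM over all libraries (x axis), with bars for the SE and black dashes for the smallest change that would be called at that SE. The 4 called genes lie from 3.11 to 6.55 log2 CPM and exceed their dash by little, most narrowly Dusp1 at 0.42 against 0.41.

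Levels of different genes were compared per kilobase of the main GENCODE transcript, as geometric mean CPM per kb over both groups. Dusp1 was the most abundant at 47.0 CPM per kb, followed by Dusp7 (21.2), Spry1 (14.7), Spred2 (12.7) and Dusp6 (10.8). The remaining levels in CPM per kb were 8.77 for Dusp5, 7.76 for Spred1, 7.52 for Spry2, 1.81 for Spry4 and 1.22 for Dusp4. The median over 13773 protein-coding genes of the table was 7.33 CPM per kb, which placed 8 of the feedback genes above it and Spry4 and Dusp4 below. Called genes therefore included both the most abundant gene and one of the least abundant. Within 0.5 log2 CPM of each gene, between 8.10% and 9.55% of genes were called.

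Most of the feedback genes have few exons. Their main transcripts had 2 to 7 exons (median 3.5), against a median of 9 over the protein-coding genes of the table. The median span was 9.85 kb, against 22.6 kb. Transcript length differed less, with medians of 2784.5 and 3032 bases, and Spry4 (4755) and Spred1 (6016) lay above both. At most 4 exons were found in the 8 Dusp and Sprouty genes, and in 21.3% of protein-coding genes. The Spred genes were the exception, with 7 exons over 60.9 kb for Spred1 and 6 exons over 98.1 kb for Spred2, whereas Dusp1 spans 2.93 kb (chr17:26505590-26508519, minus strand of GRCm38) and Dusp6 4.26 kb (chr10:99263231-99267488, plus strand). Dusp5 lies at chr19:53529109-53542431 and Dusp7 at chr9:106368632-106375724, both on the plus strand. The pentamer ATTTA, the core of AU-rich elements that shorten the life of many early response transcripts, was counted in the annotated 3′ untranslated regions. It occurred 4 times in Dusp1, which had the highest density at 5.80 per kb, 7 times in Spry4 (1.97 per kb) and 12 times in Spred1 (2.77 per kb). Dusp5 held 1 match and Dusp7 held 0. The median density was 1.43 per kb in the 4 genes that rose, 1.86 per kb in the 6 that were not called and 1.23 per kb over protein-coding genes. Gene overlaps on the opposite strand were annotated for Dusp5, Spry1 and Spry4, with partners that have no row in the table, and the sources used here do not state the strand setting of the authors' counting.

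Other genes of the same families went in both directions. Over all 29 measured Dusp, Spry and Spred genes, 6 rose and 2 fell in the authors' deposited table, with a median log2 fold change of 0.03. The 6 include the 4 feedback genes that rose. Of the 19 outside the 10 feedback genes, 2 rose and 2 fell. This is 21.1% called, beside 8.13% of all genes, a difference that was not tested. The phosphatases of JNK and p38 were split. Dusp8 rose by 0.54 (SE 0.13, adjusted p = 0.0347 by limma), while Dusp10 fell by 0.66 (SE 0.12, adjusted p = 0.0123 by limma), in the authors' deposited table. Dusp16 stood at 0.21 (SE 0.06, adjusted p = 0.0693 by limma, 0.0418 with the GC and length trend removed) and the ERK phosphatase gene Dusp9 at 1.72 with a wide interval of 0.34 to 3.10 (adjusted p = 0.117 by limma), with a mean of -1.02 (log2 CPM) from the authors' deposited table. Among 13 atypical dual-specificity phosphatases, which lack the kinase-binding domain, Dusp18 rose 2.12-fold (1.08 on the log2 scale, SE 0.10, adjusted p = 0.00107 by limma) in the authors' deposited table. Dusp18 was the only called gene of the 29 that was also called against a 1.2-fold change (adjusted p = 0.00391). Dusp22 fell by 0.26 (SE 0.07, adjusted p = 0.0497 by limma) in the authors' deposited table, and its adjusted p was 0.0528 with the median of all genes subtracted and 0.0861 with the GC and length trend removed. Dusp19 (log2 fold change -0.32), Dusp15 (-0.59) and Spred3 (0.23) were not called in the authors' deposited table.

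**Figure D4:**
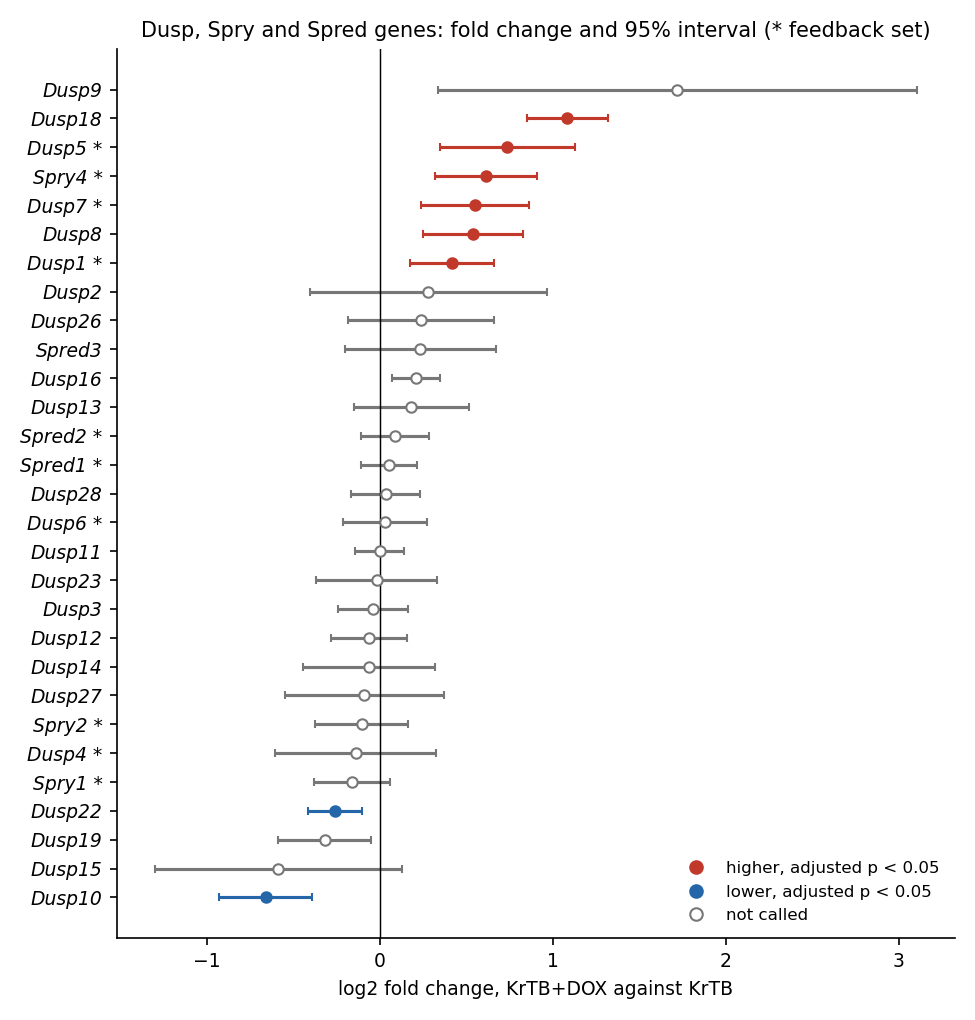
The 29 Dusp, Spry and Spred genes with a value (y axis, sorted) by log2 fold change with 95% interval (x axis), with an asterisk for the 10 feedback genes. Filled points are called genes, 6 higher and 2 lower, and the highest value, 1.72 for Dusp9, has the widest interval.

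Transcripts that ERK commonly induces were set beside the feedback genes, in a list chosen with results of these data known. Of 23 such genes other than the 10, 6 rose and 0 fell in the authors' deposited table, 20 lay above 0 and the median log2 fold change was 0.34. Hbegf, Areg and Ereg, which were not called, are also counted among the EGF family genes below. Over all genes, 3.82% were called higher and 48.8% lay above 0. The difference between the list and these shares was not tested. Those that rose were the AP-1 subunit gene Fosl1 (log2 fold change 1.72, SE 0.29), the early transcription factor gene Egr3 (1.35, SE 0.35), the small Maf factor gene Maff (0.78, SE 0.14), the cyclin gene Ccnd1 (0.67, SE 0.10), Ier3 (0.60, SE 0.10) and Phlda1 (0.57, SE 0.09) in the authors' deposited table. Fosl1 and Egr3, with the largest changes of the 6, had low means of 1.89 and 1.30 log2 CPM. The call of Egr3 was narrow (adjusted p = 0.0439 by limma). Only Fosl1 of these 6 was called against a 1.2-fold change. Dusp6 and Spry2 are often grouped with Etv4 and Etv5, ETS factor genes downstream of FGF receptors, and these were not called either. Spry4, of the same family as Spry2, did rise (0.61, adjusted p = 0.0247 by limma). Etv4 stood at 0.05 (SE 0.24) and Etv5 at 0.17 (SE 0.09) in the authors' deposited table, both picked after their values were seen. Immediate early transcripts can also respond to tissue handling, on which the sources used here give nothing per mouse. Any part of it in these values was not tested. The early genes Fos (log2 fold change 0.87, SE 0.32), Fosb (1.18, SE 0.47), Egr1 (1.01, SE 0.52), Junb (0.25, SE 0.17) and Egr2 (-0.39, SE 0.24) were not called by limma.

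Of the cascade that the feedback genes restrain, 1 transcript was called. Among its 23 measured genes, from adaptors to ERK, 0 rose and 1 fell in the authors' deposited table, with a median log2 fold change of -0.06. This is 4.35% called, beside 8.13% of all genes, a difference that was not tested. The decrease was of Gab1, a docking protein that carries the phosphatase SHP2 to receptors (log2 fold change -0.56, SE 0.09, adjusted p = 0.0096 by limma), in the authors' deposited table. Shoc2, which encodes a scaffold that helps activate RAF, stood at 0.14 (SE 0.07, adjusted p = 0.246 by limma) in the authors' deposited table. Of 10 RAS GTPase-activating proteins 0 were called by limma in the authors' deposited table, where 8.13% of all genes were called. An unadjusted p under 0.05, which 25.2% of all genes had, was found for 2 of the 10. These were Dab2ip (log2 fold change 0.31, adjusted p = 0.0598 by limma) and Rasal2 (0.22, adjusted p = 0.176). Nf1, the partner of the Spred proteins, stood at 0.13 (SE 0.07) and Rasa1 at -0.09 (SE 0.07) in the authors' deposited table.

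Among 20 other inhibitors of receptor and ERK signalling, 1 rose and 1 fell in the authors' deposited table. This is 10% called, beside 8.13% of all genes. Ptprj, a receptor-type tyrosine phosphatase, was 1.88-fold higher (0.91 on the log2 scale, SE 0.09, adjusted p = 0.00107 by limma), and Pea15a, whose product keeps ERK in the cytoplasm, fell by 0.29 (SE 0.07, adjusted p = 0.033 by limma) in the authors' deposited table. The EGF receptor inhibitor gene Errfi1 (log2 fold change 0.32, adjusted p = 0.0696 by limma, 0.0444 with the GC and length trend removed) and Socs5 (0.27, adjusted p = 0.0812 by limma) were not called in the authors' deposited table. Upstream, 0 of 13 EGF family genes rose and 1 fell, and 0 of 13 FGF receptor and ligand genes rose and 1 fell, in the authors' deposited table. Each list had 7.69% called, near the 8.13% of all genes. The decreases were of Egf (log2 fold change -0.53, SE 0.11) and Fgfr4 (-0.63, SE 0.14), while the ligand gene Tgfa stood just outside the threshold (0.52, SE 0.14, adjusted p = 0.0511 by limma) in the authors' deposited table. Tgfa was called higher under 3 of the 6 alternatives, with adjusted p-values from 0.046 to 0.0491. Epgn (0.57), Areg (0.64), Fgfbp1 (-0.57), Fgfr3 (-0.19) and Fgf2 (-0.19) were not called in the authors' deposited table. Of 11 JNK and p38 kinase genes 0 rose and 2 fell, the p38 kinase gene Mapk11 (log2 fold change -1.14, SE 0.22) and its activator Map2k6 (-1.26, SE 0.19), in the authors' deposited table. This is 18.2% called, and its difference from the share of all genes was not tested. Mapk12 (-0.40, adjusted p = 0.0539 by limma) and Map2k3 (0.26, adjusted p = 0.0889 by limma) were not called there.

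**Figure D5:**
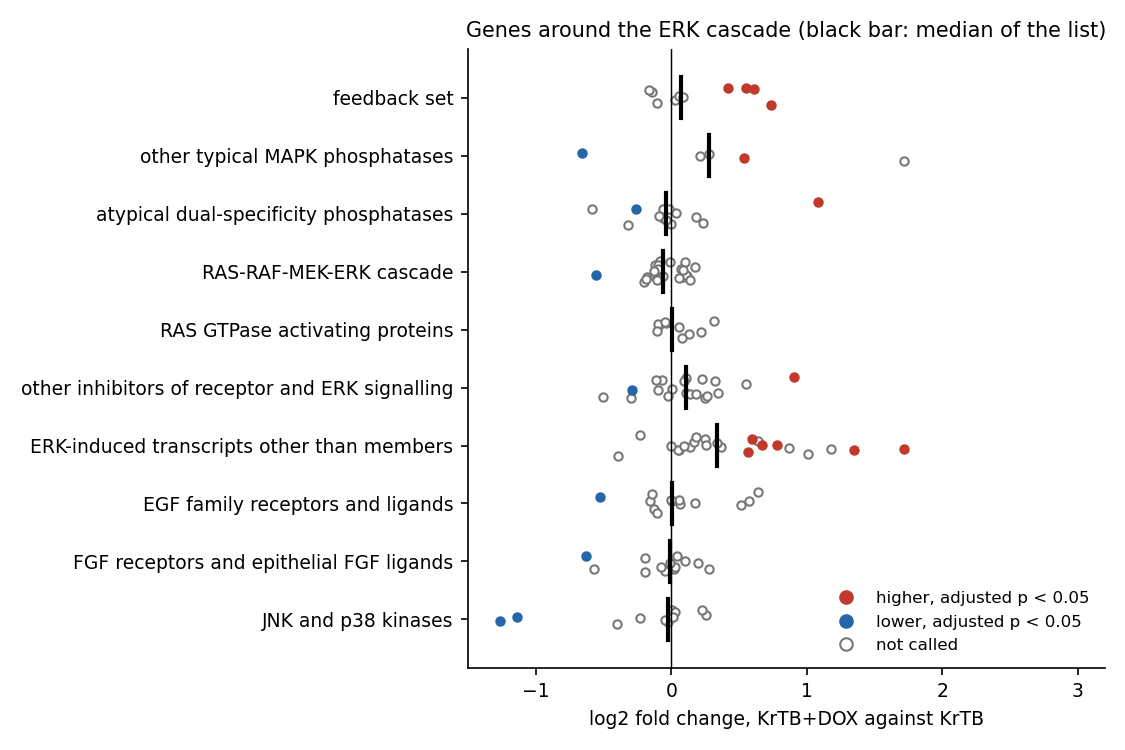
Log2 fold change (x axis) of each measured gene of the feedback set and of 9 lists around the ERK cascade (y axis), with a black bar for the median of each list. Red points are called higher, blue points called lower and open points not called, and the ERK-induced list has 6 called genes, all to the right of 0. Hbegf, Areg and Ereg are shown in both the ERK-induced and the EGF family list.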

How the data were processed

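Stranded mRNA libraries were sequenced, per the labels' protocols. HTSeq 0.11.2, STAR 2.5.2b, cutadapt and bcl2fastq 2.20 stand in the submitters' processing notes, with the build GRCm38 and without roles or settings. The authors' deposited table is limma output for 1 comparison, per the file headers: log2 fold change, mean expression, t and B scores, p-value and adjusted p-value. It has 0 columns of values per library, so no library could be plotted or left out, and the depth that would set the precision of each value is unknown. Mean expression was read as log2 CPM, because as a power of 2 it sums to 985251 over all genes. Benjamini-Hochberg values recomputed from the p-values differed from the adjusted p-values by at most 6.4e-15. The table does not state the sign, and the sources used here do not give limma's version, design or filters.

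The SE is the fold change divided by t, and intervals use the 9.76 degrees of freedom that t and p imply. Levels per group set the fold change evenly on either side of the mean, as if libraries weighed equally. Called genes have an adjusted p under 0.05, as deposited over all 15540 genes. Transcripts came from GENCODE M21, with 15085 symbols matched (97.1%), taking the longest principal transcript, and promoters from RefSeq. Python 3.11.15, pandas 2.3.3 and scipy 1.17.1 were used, and the code was tested on simulated data. Alternatives were another set of genes for adjustment, a test against a 1.2-fold change, median centring, removal of trends with expression or with GC and length, and Bonferroni adjustment.

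The members and lists were chosen with earlier results of these data known. Named genes are the 10 members, every called gene of the other pathway lists, and the smallest p-values up to 4 a list. Others are said to be picked later. A planned protein motif search was not run, and some promoters and some genes named by this rule are not reported here.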

Additional observations from a re-analysis of the deposited data

How the results depend on the processing

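Directions of the 10 feedback genes held under the 3 alternatives that change the fold changes, which moved a feedback gene by at most 0.08 on the log2 scale. Calls were the same in 10 of 10 genes when the adjustment left out genes averaging under 1 log2 CPM, with the median of all genes subtracted, and with the trend with mean expression or with GC and length removed. Against a 1.2-fold change the calls fell from 4 to 0, with adjusted p-values of 0.251 (Dusp5), 0.269 (Spry4), 0.481 (Dusp7) and 0.847 (Dusp1), and under Bonferroni adjustment from 4 to 0, each with an adjusted p of 1. Both alternatives are stricter by construction, with 222 and 34 genes called in the whole table in place of 1263. Of the 129 other pathway genes with a value, 9 were higher and 8 lower as deposited. This is 13.2% called, beside 8.13% of all genes, a difference that was not tested. The 9 and 8 became 3 and 1 against a 1.2-fold change and 2 and 0 under Bonferroni adjustment, and the 6 ERK-induced genes became 1 and 0. The counts were 12 higher and 7 lower with the GC and length trend removed (Dusp16, Errfi1 and Tgfa added, Dusp22 lost) and 10 and 7 with the median subtracted (Tgfa added, Dusp22 lost). No paired analysis was possible because the table holds no values per library and the labels give no pairing. For the same reason leaving out replicates was not run.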
